A study of Mus musculus with 16 samples.

Results

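The germline genes examined were Dazl, Ddx4, Mael, Sycp3, Tex19.1, Dppa2, Dppa3, Hormad1, Asz1 and Stk31, 10 of the 46983 genes counted. They were chosen by name, as genes best known from germ cells and early embryos whose RNA can also be found in mouse embryonic stem cells (ESCs), and each symbol matched 1 Ensembl gene. The cells were the feeder-free 46C line, 1 line of strain 129Ola that carries GFP at the Sox1 locus, grown on gelatin with leukaemia inhibitory factor. They were transfected with an siRNA against RAM, the activating subunit of the mRNA cap methyltransferase RNMT, or with a non-targeting control siRNA, and all cultures received cycloheximide before lysis 48 hr later. From each culture, RNA of the cytoplasmic extract (input) and of pooled sucrose gradient fractions 17 to 22 (polysomes, the RNAs that carry several ribosomes) was sequenced. Each of the 4 groups, control and RAM siRNA in input and in polysomes, had 4 replicates made on separate occasions. The data were bulk, so fewer cells that express a gene and less of its RNA per cell cannot be told apart.

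Germ cells use a set of genes that somatic cells keep silent. It includes RNA-binding proteins, factors that restrain transposons through PIWI-interacting RNAs (piRNAs), and proteins that build the meiotic chromosome axis. In somatic cells many of these genes have CpG-rich, methylated promoters. In ESCs, which lie close to the epiblast from which germ cells arise, some of them are transcribed at a low level, and a Polycomb complex with MGA and MAX, which bind E-boxes, and with an E2F family member is known to hold others down.

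Promoter windows of 300 bases, from 250 before to 50 after the annotated start, were listed in RefSeq (GRCm38.p6) for 8 of the 10 genes, all but Dppa2 and Dppa3. They held between 15 CpG dinucleotides (Sycp3) and 38 (Ddx4), against a median of 7 over the windows of 27025 genes. The ratio of observed to predicted CpG ran from 0.575 in Tex19.1 to 0.978 in Ddx4, against a median of 0.38. The E-box CACGTG, which reads the same on both strands, was present in 5 of the 8 windows. It occurred in 7.09% of all windows and in 11.4% of the 9369 windows with at least 15 CpG. The letters TCCCGC or their reverse complement GCGGGA, as in E2F sites, were also present in 5 of 8 windows, against 19.8% of all windows and 45.2% of those with at least 15 CpG. Mael, Hormad1, Sycp3 and Ddx4 held both, Stk31 held the E-box alone and Tex19.1 the E2F-like letters alone. The letters were absent from the windows of Asz1 and Dazl. These stretches are printed along the strand of the gene because they hold the E-boxes, or the E2F-like letters of Tex19.1, and capitals mark those letters.
Mael, chr1:166238942-166238987, minus strand: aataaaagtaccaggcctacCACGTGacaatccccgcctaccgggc
Hormad1, chr3:95559600-95559682, plus strand: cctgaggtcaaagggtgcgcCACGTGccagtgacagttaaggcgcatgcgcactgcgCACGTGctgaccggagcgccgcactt
Sycp3, chr10:88459503-88459569, plus strand: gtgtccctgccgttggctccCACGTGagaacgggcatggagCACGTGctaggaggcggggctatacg
Ddx4, chr13:112652314-112652359, minus strand: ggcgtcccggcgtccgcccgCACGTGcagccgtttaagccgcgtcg
Stk31, chr6:49395464-49395509, plus strand: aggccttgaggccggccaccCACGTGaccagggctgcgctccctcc
Tex19.1, chr11:121146090-121146135, plus strand: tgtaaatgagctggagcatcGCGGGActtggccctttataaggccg
The E-box began at position -29 in Ddx4 and at -223 in Mael, counted from the start site. Hormad1 and Sycp3 each held a pair of E-boxes. A match of letters is a description of the sequence and no measurement of binding or methylation was made here.

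Libraries held between 16647523 and 20147833 counts on genes. Ramac, which encodes RAM, had 197 to 206 counts per input control library and 46 to 58 per input RAM siRNA library, and in polysomes 122 to 256 against 5 to 45. All 8 ESC markers looked at, among them Pou5f1 and Nanog, passed the expression filter, and their summed level was 3972 to 4326 CPM (counts scaled to library size) in input control libraries and 3405 to 3932 CPM in input RAM siRNA libraries. Their fitted change in input was below 0 for 8 of 8. Nanog and Esrrb were the 2 called lower without the replicate block, a term for the replicate number, against 5.94% of all tested genes. With the block 7 were called lower, against 19% of all tested genes. The 5 spermatid markers together had at most 6 counts in a library, and 2 of them had 0 in all 16. Of 5 oocyte markers, 3 never passed 10 counts and 1 was tested, Zp3, a gene of the egg coat, with 58 to 69 counts in input control and 110 to 137 in input RAM siRNA libraries. Of 4 endoderm markers 2 passed the filter. The sum over the 4 was 3.58 to 4.88 CPM in input control and 5.55 to 6.82 CPM in input RAM siRNA libraries. For mesoderm, neural, trophectoderm and fibroblast markers the sums of the 2 input groups overlapped. Control and RAM siRNA inputs had 13.37 to 16.04 and 11.48 to 15.22 CPM for mesoderm, and 71.32 to 83.28 and 77.38 to 91.58 CPM for neural markers. They had 0.84 to 1.42 and 0.92 to 1.55 CPM for trophectoderm, and 8.02 to 9.59 and 8.85 to 11.15 CPM for fibroblast markers. The part of these marker differences in the changes of the germline genes was not tested. Polysome libraries resembled each other less than input libraries did. Over genes, which are not independent replicates, the Pearson correlation of log2 CPM was 0.977 to 0.996 between input libraries of a group and 0.934 to 0.988 between polysome control libraries. RAM siRNA polysome replicate 2 stood apart, with correlations of 0.833 to 0.942 to the other 3 libraries of its group. Same-numbered libraries also deviated from their group means together, so each test was made without and with the replicate block.

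Each of the 10 genes passed the filter of 1 CPM in at least 10 of the 16 libraries, with Dppa3 at that level in 12 libraries and the other 9 genes in all 16. Their levels in control input spanned more than an order of magnitude. Levels of different genes are given as CPM per kilobase of annotated exon (mean ± SD, n = 4 libraries). Tex19.1, which encodes a protein that restrains retrotransposons in germ cells and placenta, was highest at 77.5 ± 3.95, above 95.5% of the genes tested. Hormad1, a component of the meiotic chromosome axis, followed at 37.5 ± 2.47. Dppa2, a chromatin factor that pairs with Dppa4, was at 28.2 ± 3.11, and Dazl, an RNA-binding regulator of germ cell translation, at 23.6 ± 1.92. The ranges of these last 2 genes overlapped, while those of Tex19.1 and Hormad1 overlapped with none below. Mael, a piRNA pathway factor, was at 11.9 ± 1.37 and Sycp3, a protein of the synaptonemal complex, at 8.18 ± 1.44. Ddx4, the germ cell RNA helicase known as Vasa, was at 5.28 ± 0.817. It overlapped with Stk31, a Tudor domain protein, at 4.86 ± 0.976, which in turn overlapped with Asz1, a piRNA factor at mitochondria, at 4.13 ± 1.14. Dppa3, a maternal factor that shields DNA methylation in the early embryo, was lowest at 2.00 ± 0.690, above 24% of the genes tested. The median of the tested genes was 6.10, so 6 of the 10 lay above it and 4 below.

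**Figure D1:**
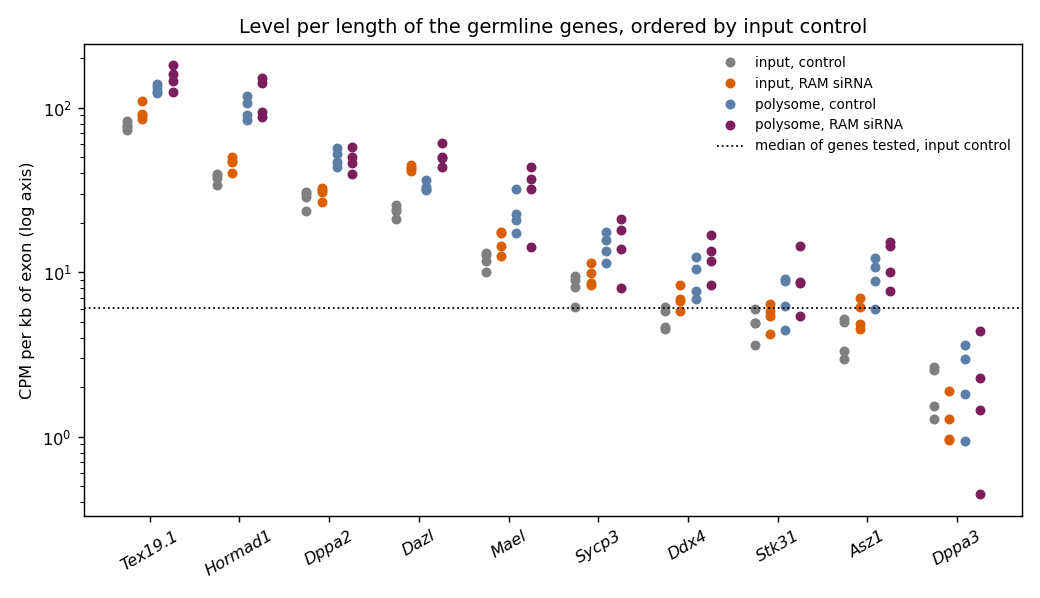
Level of the 10 germline genes as CPM per kilobase of exon on a log axis, 1 point per library, in input and polysomes of control and RAM siRNA cells. Genes are ordered by their mean in input control, from Tex19.1 at 77.5 to Dppa3 at 2.00, and the dotted line is the median of the tested genes, 6.10.

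Sycp3 overlaps Chpt1 and Stk31 overlaps the pseudogene Gm17060, each on the opposite strand. The library kit keeps the strand, but the strand setting of the read counter is not given in the sources used here. A share of their counts could come from these neighbours. A processed copy of Dppa3 and the paralogue Tex19.2 are annotated as separate genes, and reads shared with them could be counted with either.

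Dazl changed most. The gene lies on the minus strand of chromosome 17 of GRCm38, from 50279395 to 50293636. In input it had 89.7, 92.4, 80.3 and 97.7 CPM in control replicates 1 to 4, and 164, 172, 164 and 158 CPM in RAM siRNA replicates 1 to 4. Every RAM siRNA library was above every control library. The means were 90.0 ± 7.32 CPM and 164 ± 5.44 CPM (SD, n = 4), a 1.83-fold higher level, and the log2 change was 0.87 ± 0.07 (SE; adjusted p = 6.13e-05 by the quasi-likelihood F test of edgeR, with Benjamini-Hochberg correction across all 12805 tested genes). The rise within each same-numbered pair was between 1.62-fold and 2.04-fold. When each of the 8 libraries was left out in turn, the adjusted p stayed between 3.31e-05 and 0.000648. With replicates 3 and 4 alone the log2 change was 0.85 with an adjusted p of 0.287 by edgeR, and no gene of the whole table was called in that smaller comparison.

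Hormad1 was the other gene called in input without the replicate block. It is on the plus strand of chromosome 3, from 95559677 to 95587671. Its input level was 68.1, 65.1, 58.7 and 67.4 CPM in control replicates 1 to 4 and 87.2, 81.4, 82.0 and 69.1 CPM in RAM siRNA replicates 1 to 4. Here too the groups did not overlap, although RAM siRNA replicate 4 was barely above the highest control. The log2 change was 0.30 ± 0.08 (SE; edgeR adjusted p = 0.0347). This call was lost in 7 of the 8 fits that left out 1 library, where the adjusted p reached 0.114. Only the fit without RAM siRNA replicate 4 kept it, with an adjusted p of 0.00388. With the replicate block the adjusted p by edgeR was 0.000284, and it stayed at or under 0.00913 when any same-numbered pair was left out.

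In input, 2 of the 10 germline genes were called higher without the block, where 6.95% of all tested genes were, and 0 were called lower, against 5.94% of all tested genes. With the replicate block 6 were called higher (20.3% of all tested genes) and 1 lower (19% of all tested genes). The block added Tex19.1, Ddx4, Mael and Asz1 to Dazl and Hormad1. Groups that did not overlap, with RAM siRNA higher, were found for 3 of 10 genes (9.39% of all tested genes), namely Dazl, Hormad1 and Tex19.1. The median log2 change of the 10 was 0.29 without the block and 0.28 with it, against 0.00 over all tested genes in both fits. Of the 40 same-numbered pairs of input libraries, 4 for each gene, 35 had the higher value in the RAM siRNA library. The genes share libraries, so these pairs are not independent. Of the 5 genes whose promoter window held an E-box, Hormad1, Ddx4 and Mael were called higher with the block, and Sycp3 and Stk31 were not called. Dazl and Asz1, whose windows held neither motif, were called higher.

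**Figure D2:**
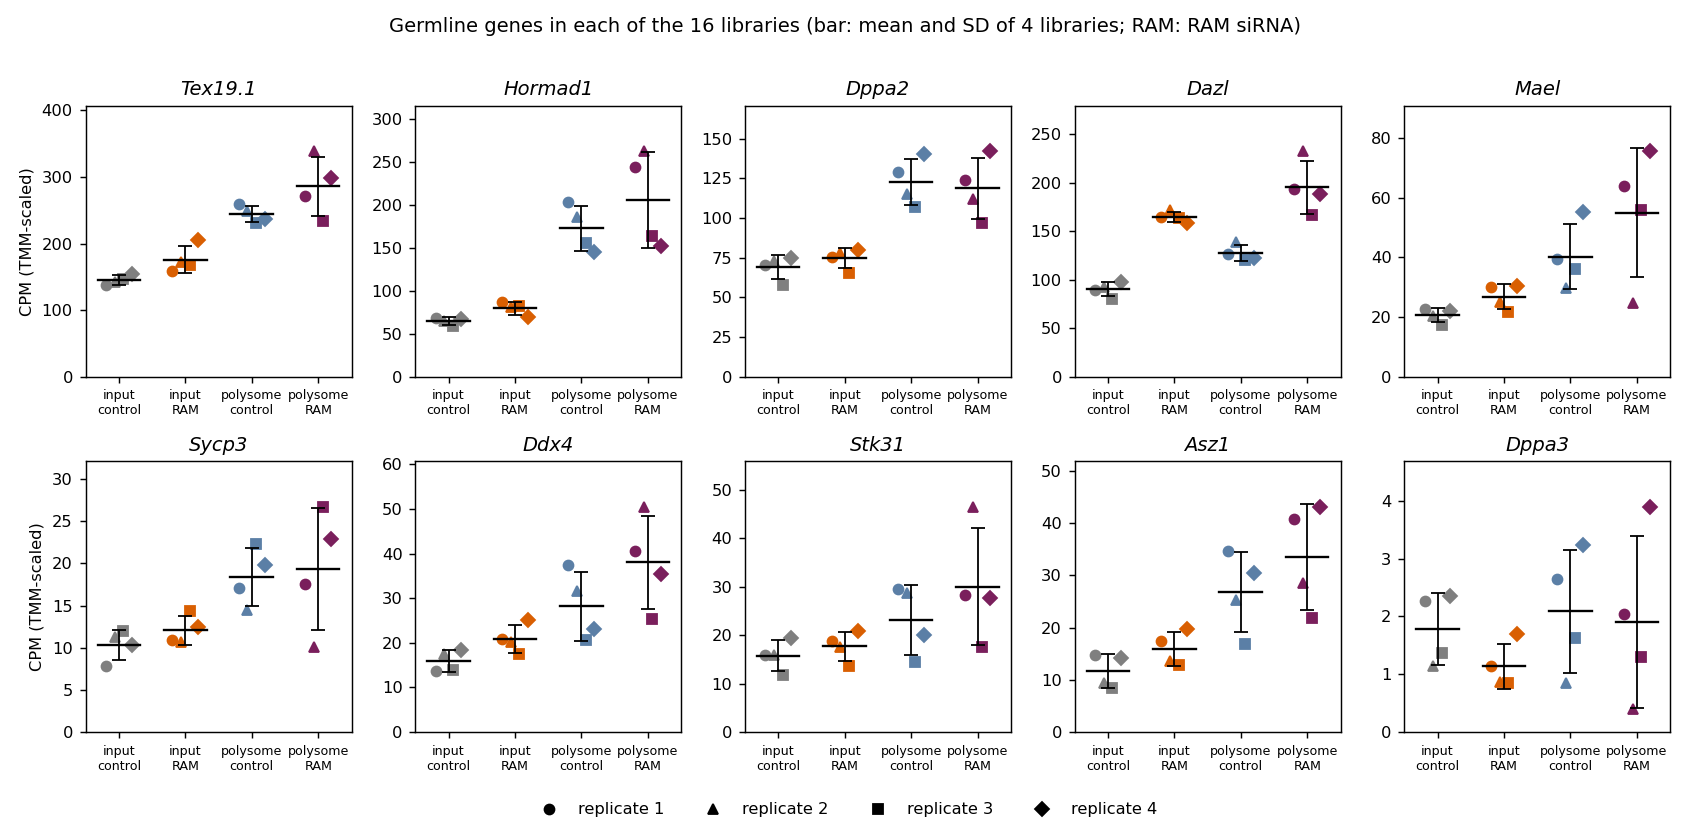
Level of each germline gene in CPM scaled by TMM in the 16 libraries, with a marker shape for each replicate number and bars for the mean and SD of 4 libraries. RAM siRNA input libraries lie above all control input libraries for Tex19.1, Hormad1 and Dazl. Replicate 2 of the RAM siRNA polysomes is the lowest of its group for Mael, Sycp3 and Dppa3 and the highest for Tex19.1, Hormad1, Dazl, Ddx4 and Stk31.

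Tex19.1 (chromosome 11, 121146143 to 121148319, plus strand) had 137, 142, 146 and 155 CPM in the control inputs and 159, 172, 167 and 205 CPM in the RAM siRNA inputs. The groups were separate, and replicate 4 was the highest in each. The log2 change was 0.27 ± 0.08 (SE), with an edgeR adjusted p of 0.0512 without the block and 7.22e-05 with it.

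The remaining transposon and RNA factors shifted by similar amounts, with overlapping groups. Ddx4 went from 15.9 ± 2.46 CPM to 20.9 ± 3.17 CPM (SD, n = 4). Its log2 change was 0.39 ± 0.13 (SE), with an edgeR adjusted p of 0.0660 without and 0.000350 with the block. Mael went from 20.6 ± 2.37 CPM to 26.8 ± 4.26 CPM, a log2 change of 0.37 ± 0.12 (SE; edgeR adjusted p = 0.0586 without and 8.27e-05 with the block). In both genes the RAM siRNA library was the higher one of all 4 same-numbered pairs. Asz1 was at 11.7 ± 3.23 CPM and 15.9 ± 3.26 CPM. The 4 pairs of Asz1 ran from 1.19-fold to 1.51-fold higher, and its log2 change was 0.44 ± 0.19 (SE; edgeR adjusted p = 0.147 without and 0.000173 with the block). These 3 genes, like Tex19.1, kept their call under the block whichever same-numbered pair was left out.

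Stk31, Sycp3 and Dppa2 were not called in input in either fit over all replicates. Stk31 was measured at 15.7 ± 3.16 CPM in control libraries and at 17.7 ± 2.99 CPM with RAM siRNA (SD, n = 4). Without the block its log2 change was 0.16 ± 0.15 (SE), and its edgeR adjusted p was 0.526 without and 0.0665 with the block. For Sycp3 the levels were 10.3 ± 1.82 and 12.1 ± 1.73 CPM. The unblocked log2 change was 0.22 ± 0.14 (SE), and the edgeR adjusted p was 0.343 without and 0.0591 with the block. Without the replicate 2 pair, the blocked change of Sycp3 was 0.33 with an edgeR adjusted p of 0.0122. Dppa2, the third most abundant member per length, differed least, with 69.0 ± 7.62 CPM in control libraries and 74.6 ± 6.28 CPM with RAM siRNA. Its unblocked log2 change was 0.11 ± 0.09 (SE), and its edgeR adjusted p was 0.475 without and 0.0521 with the block.

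Dppa3 was the one gene with a fitted value below 0 in input. Its counts were low. The control inputs had 43, 23, 25 and 42 counts in replicates 1 to 4, and the RAM siRNA inputs 21, 15, 16 and 30. The RAM siRNA library was lower in 4 of 4 pairs, but the ranges of the groups overlapped. The log2 change was -0.64 ± 0.30 (SE), with an edgeR adjusted p of 0.181 without the block and 0.0163 with it. Without the replicate 1 pair the blocked value was -0.51 with an edgeR adjusted p of 0.121.

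**Figure D3:**
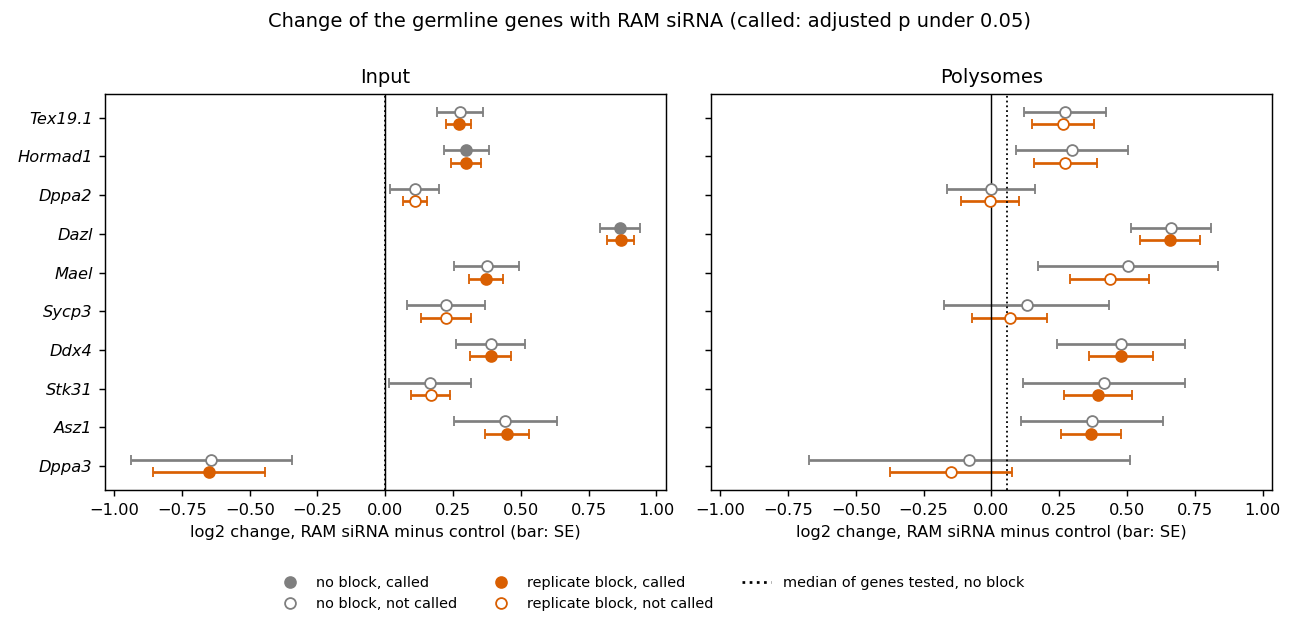
Fitted log2 change of each germline gene with RAM siRNA in input (left) and polysomes (right), with its SE, from the fit without (grey) and with (orange) the replicate block. Filled points had an adjusted p under 0.05, and the dotted line is the median of all tested genes. Dazl lies farthest to the right in both fractions, at 0.87 and 0.66 without the block, and Dppa3 farthest to the left in input, at -0.64.

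In polysomes, 0 of the 10 genes were called without the block, where 0% of all tested genes were called higher and 0.0234% lower. By edgeR, 1 gene, Dazl, had an unadjusted p under 0.05, and DESeq2 called 1. With the replicate block 4 were called higher, against 9.68% of all tested genes, and 0 lower, against 4.97%. They were Dazl, Ddx4, Asz1 and Stk31. The median log2 change of the 10 was 0.33 without and 0.32 with the block, against 0.06 and 0.03 over all tested genes.

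Dazl was the 1 germline gene whose polysome groups did not overlap, with RAM siRNA higher, as seen for 2.18% of all tested genes. It had 126, 139, 120 and 123 CPM in the control and 193, 232, 167 and 188 CPM in the RAM siRNA polysomes, replicates 1 to 4. Replicate 2 was the highest library in each group. The mean rose 1.54-fold, and the log2 change was 0.66 ± 0.15 (SE), with an edgeR adjusted p of 0.141 without and 0.00103 with the block. Without the replicate 2 pair, which holds the library that stood apart, the blocked change was 0.62 with an edgeR adjusted p of 3.28e-06. Over the other 3 pairs left out in turn, it was at most 0.0166.

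The other polysome calls were less stable. Ddx4 went from 28.2 ± 7.74 to 38.0 ± 10.5 CPM (SD, n = 4), higher in 4 of 4 pairs, with a blocked log2 change of 0.48 ± 0.12 (SE; edgeR adjusted p = 0.0129). Without the replicate 4 pair its adjusted p by edgeR was 0.133. Asz1 had a blocked log2 change of 0.37 ± 0.11 (SE; edgeR adjusted p = 0.0361), and kept its call without the replicate 2 pair but not without the replicate 1, 3 or 4 pair. Stk31 was at 0.39 ± 0.13 (SE; edgeR adjusted p = 0.0468). It lost its call without the replicate 3 or the replicate 4 pair.

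Mael depended on the library that stood apart. Its polysome counts were 731, 566, 640 and 977 in control replicates 1 to 4 and 1061, 434, 1119 and 1279 in RAM siRNA replicates 1 to 4. RAM siRNA replicate 2 was the lowest of all 8, and the other 3 RAM siRNA libraries were above all controls by count. The blocked log2 change was 0.44 ± 0.15 (SE; edgeR adjusted p = 0.0551) with all pairs and 0.65 (edgeR adjusted p = 4.34e-06) without the replicate 2 pair. Leaving that pair out changed the count of germline genes called in polysomes under the block from 4 to 5, whereas leaving out pair 1, 3 or 4 gave 3, 2 and 1.

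Hormad1, Tex19.1, Sycp3, Dppa2 and Dppa3 were called in neither polysome fit. Hormad1 had blocked and unblocked log2 changes of 0.27 and 0.30, and Tex19.1 of 0.26 and 0.27, each with the RAM siRNA library higher in 4 of 4 pairs. The polysome level of Sycp3 was 18.4 ± 3.39 CPM in control libraries and 19.3 ± 7.21 CPM with RAM siRNA (SD, n = 4). Dppa2 spanned 107 to 140 CPM in the control and 96.8 to 142 CPM in the RAM siRNA polysomes, so one group lay within the other. The Dppa3 counts were 49, 16, 29 and 57 in control and 34, 7, 26 and 66 in RAM siRNA polysomes, again with replicate 2 the lowest in both groups.

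In control cells the 10 germline genes were mostly richer in polysomes than in input. Without the block 8 of 10 were called higher, against 33.1% of all tested genes, and 0 lower, against 34.3%. With the block 9 were called higher, against 35.1%, and 0 lower, against 37.2%. The median log2 difference was 0.79, against 0.00 over all tested genes and 0.02 over the 12123 tested genes annotated as protein coding, of which 33.7% were called higher. It was 0.64 for the 8 ESC markers, of which 5 were called higher and 1 lower. The polysome range lay above the input range for 8 of 10 genes, as for 30.7% of all tested genes. The related lists described below differed among themselves, without the block. Of 16 tested genes of the piRNA list 6 were called higher and 3 lower, with a median of 0.36. In the meiotic list 8 and 5 of 25 were, with a median of 0.14. In the primordial germ cell list 8 and 0 of 11 were (median 0.66), and in the two-cell-stage list 0 and 0 of 4 (median 0.06).

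Hormad1 had the highest polysome to input ratio. It had 203, 186, 156 and 146 CPM in the control polysomes, replicates 1 to 4, against the input values given above, and every polysome library was far above every input library. Its ratio over the same-numbered pairs was 2.67 ± 0.360 (SD, n = 4) and the log2 difference was 1.38 ± 0.13 (SE; edgeR adjusted p = 4.07e-06). Asz1 followed at a ratio of 2.29 ± 0.298, with a log2 difference of 1.16 ± 0.24 (SE; edgeR adjusted p = 0.00113). Mael, Ddx4, Sycp3, Dppa2 and Tex19.1 had mean ratios between 1.69 and 1.94. Dazl, itself a regulator of translation in germ cells, was at 1.42 ± 0.117 with a log2 difference of 0.46 ± 0.11 (SE; edgeR adjusted p = 0.00306).

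Stk31 and Dppa3 were the 2 genes not called higher in polysomes without the block. Stk31 had ratios of 1.86, 1.80, 1.24 and 1.03 in pairs 1 to 4, so pairs 1 and 2 were above pairs 3 and 4. Its log2 difference was 0.52 ± 0.22 (SE), with an edgeR adjusted p of 0.0546 without and 0.0203 with the block. Dppa3 had a ratio below 1 in pair 2 and above 1 in the other 3, and its log2 difference was 0.19 ± 0.38 (SE; edgeR adjusted p = 0.672).

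**Figure D4:**
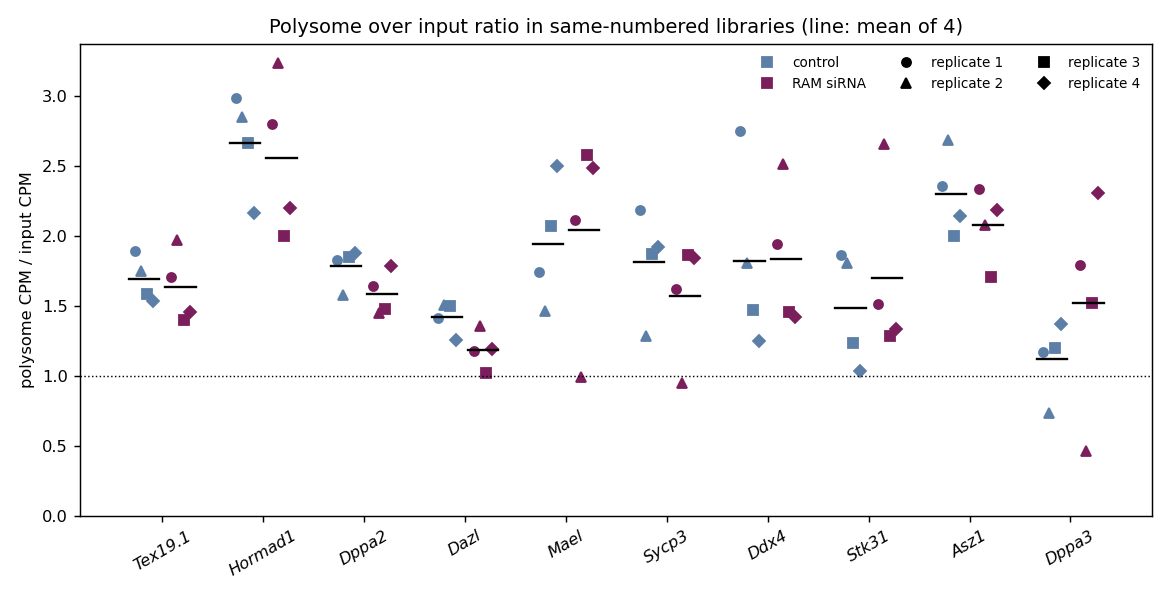
Ratio of polysome CPM to input CPM in same-numbered libraries of control and RAM siRNA cells for each germline gene, with the mean of 4 pairs as a line and a dotted line at 1. Of the 40 control ratios 39 lie above 1, and Hormad1 has the highest mean in both groups, 2.67 and 2.56.

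The change of polysome loading, the polysome to input ratio, with RAM siRNA was tested as an interaction over all 16 libraries. The libraries were scaled by TMM, so this loading is relative to the other genes. A change of loading shared by most genes would not appear in it. The authors reported fewer polysomes relative to monosomes after RAM siRNA. For single genes, they reported loading changes relative to input transcripts in only a small set. By edgeR 0 of 10 germline genes were called in either direction, and 0% of all tested genes were called higher and 0% lower. No germline gene had an unadjusted p under 0.05 in the fit without the block, and DESeq2 called 0. With a replicate block within each fraction 1 gene, Dazl, had an unadjusted p of 0.0330 in this fit across all genes by edgeR, with an adjusted p of 0.955. The ratio of Dazl was lower with RAM siRNA in 4 of 4 pairs, with 1.42 ± 0.117 in control and 1.18 ± 0.138 in RAM siRNA cells (SD, n = 4), and the difference was -0.25 ± 0.17 on the log2 scale (SE) without the block. Sycp3 and Dppa2 also had the lower ratio in RAM siRNA cells in 4 of 4 pairs, with differences of -0.15 ± 0.34 and -0.16 ± 0.20 (SE). The SE of the 10 differences ran from 0.17 to 0.72 without the block and from 0.10 to 0.30 with the block within each fraction. Hormad1 had a ratio of 2.67 in control and 2.56 in RAM siRNA cells.

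Genes with roles close to these 10 were looked at in lists, described by counts and medians. Of 18 genes of the piRNA pathway and nuage, the germ granule where piRNAs are made, 16 were tested. In input 7 of the 16 were called higher and 0 lower without the block (6.95% and 5.94% of all tested genes), and 10 and 0 with it (20.3% and 19%), with a median log2 change of 0.41. Gpat2, a mitochondrial acyltransferase homologue needed for piRNA production, went from 48.9 ± 3.35 CPM to 74.4 ± 6.20 CPM (SD, n = 4), a log2 change of 0.60 ± 0.08 (SE; edgeR adjusted p = 0.000594). Piwil4, a PIWI protein, rose by 0.76 ± 0.15 on the log2 scale and Pld6, the mitochondrial factor of piRNA biogenesis, by 0.73 ± 0.15 (SE). The Tudor domain helicases Tdrd9 and Tdrd12 rose by 0.92 ± 0.19 and 0.59 ± 0.15 on the log2 scale (SE), and Tdrd9 had 36 to 56 counts per control and 75 to 114 per RAM siRNA input library. The adjusted p by edgeR of these 4 genes was between 0.00755 and 0.0241. In polysomes 0 of the 16 were called without the block, where 0% of all tested genes were called higher and 0.0234% lower. With the block 8 were called higher and 0 lower (9.68% and 4.97% of all tested genes).

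A list of 31 genes, most of them for meiotic chromosomes and recombination, matched 30, of which 25 were tested. It also held Tex101, a germ cell surface protein, and Slc25a31, a mitochondrial ADP/ATP carrier of germ cells, which are not chromosome proteins. In input 9 were called higher and 0 lower without the block (6.95% and 5.94% of all tested genes), with Tex101 among the 9. With the block 15 were called higher, Tex101 and Slc25a31 among them, and 1 lower (20.3% and 19%). The median log2 change was 0.33. Tex101 had 25 to 35 counts per control input library and 61 to 81 per RAM siRNA input library, a log2 change of 1.33 ± 0.17 (SE; edgeR adjusted p = 0.000529). Rec8, the meiotic cohesin subunit, had 33 to 55 and 79 to 107 counts and changed by 1.11 ± 0.18 on the log2 scale (SE; edgeR adjusted p = 0.00202). In polysomes these 2 genes were also separate between the groups, with RAM siRNA higher, as seen for 2.18% of all tested genes. Their log2 changes were 1.44 each, with edgeR adjusted p values of 0.0694 without the block, so neither was called in that fit. Sycp2, the partner of Sycp3 in the synaptonemal complex, rose in input by 0.84 ± 0.13, Meioc by 0.44 ± 0.07 and Rec114 by 0.41 ± 0.08 on the log2 scale (SE). The adjusted p by edgeR of these 3 was between 0.00214 and 0.00584. Spo11, which makes the meiotic DNA breaks, had at most 3 counts in any library and was not tested. In polysomes 0 of 25 were called without the block, where 0% of all tested genes were called higher and 0.0234% lower. With the block 10 were called higher and 1 lower (9.68% and 4.97% of all tested genes).

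**Figure D5:**
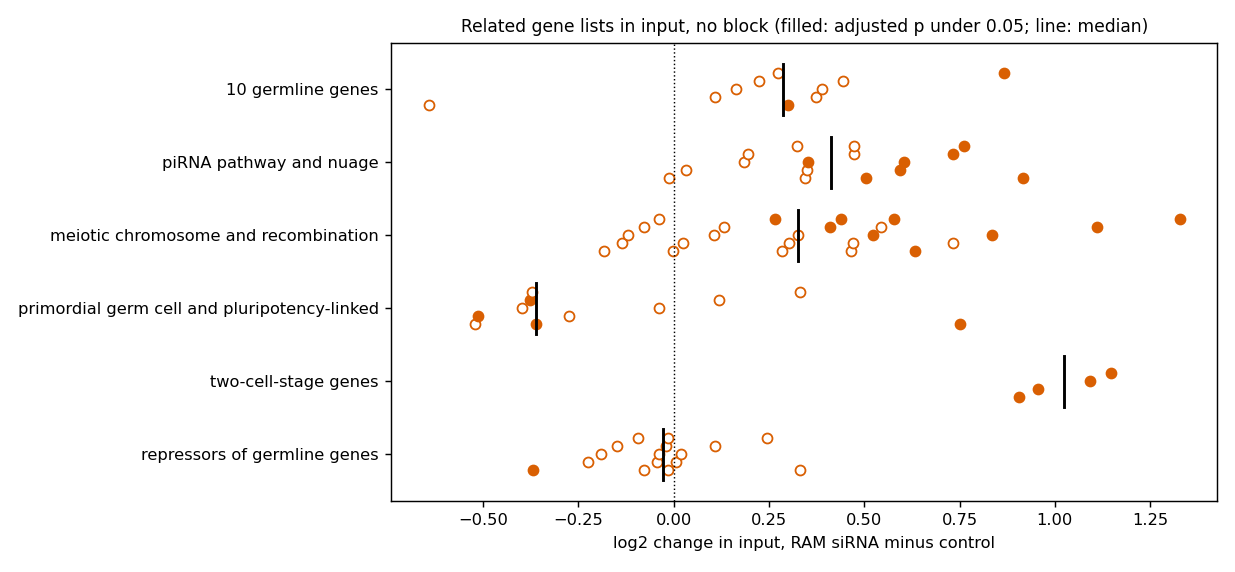
Log2 change in input with RAM siRNA, without the block, for the tested genes of each list, 1 point per gene, filled where the adjusted p was under 0.05, with the median of the list as a line. The medians are 0.29 for the 10 germline genes, 0.41 for the piRNA list, 0.33 for the meiotic list, -0.36 for the primordial germ cell list, 1.02 for the 4 tested two-cell-stage genes and -0.03 for the repressors.

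The list of primordial germ cell and pluripotency-linked genes held calls in both directions. Of 11 tested, 1 was called higher and 3 lower in input without the block (6.95% and 5.94% of all tested genes), and 3 and 6 with it (20.3% and 19%). The gene called higher was Tex19.2, the paralogue of Tex19.1, with a log2 change of 0.75 ± 0.09 (SE; edgeR adjusted p = 0.000360). Prdm14 and Tfap2c, transcription factors that specify primordial germ cells, fell by 0.51 ± 0.12 and 0.38 ± 0.12 on the log2 scale (SE), and Dppa5a fell by 0.36 ± 0.07. The adjusted p of these 3 by edgeR was 0.0133, 0.0493 and 0.00701. The median of the list was -0.36.

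Of 9 two-cell-stage genes, which mark a transient state of a few ESCs, 4 were tested. All 4 were called higher in input in both fits, against 6.95% of all tested genes without and 20.3% with the block. Without a filter on low counts all 9 were fitted and 4 were called. With replicates 1 and 2 alone 2 of the 4 tested were called. In polysomes 0 of the 4 were called without the block, where 0% of all tested genes were called higher and 0.0234% lower. With the block 4 were called higher, against 9.68% of all tested genes. Zscan4f changed by 1.15 ± 0.21, Usp17la by 1.09 ± 0.24, Zscan4c by 0.96 ± 0.22 and Zscan4d by 0.91 ± 0.17 on the log2 scale (SE), with an adjusted p by edgeR between 0.00445 and 0.0133. They belong to families of near-identical copies, so the division of reads among the copies is uncertain, and each had at most 125, 154, 97 or 56 counts in an input library, for Zscan4c, Zscan4d, Zscan4f and Usp17la in that order. Of 16 repressors of germline genes 0 were called higher and 1 lower in input without the block (6.95% and 5.94% of all tested genes). Uhrf1, the partner of the maintenance methyltransferase Dnmt1, went from 299.9 ± 18.0 CPM to 233 ± 23.7 CPM (SD, n = 4), a log2 change of -0.37 ± 0.08 (SE; edgeR adjusted p = 0.0133). With the block 2 were called higher and 4 lower, where 20.3% and 19% of all tested genes were. The counts of repressors in both fits lie near the background. The median of the repressors was -0.03.

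The genes most similar to the 3 germline genes of highest level per length were found by Pearson correlation of log2 CPM over the 16 libraries, which share the large difference between fractions. For Tex19.1 they were Plin2, Tuba1a and Rbbp7, with r from 0.982 to 0.992. For Hormad1 they were Mfge8, Sars2 and Oma1 (0.986 to 0.988), and for Dppa2 they were Pcyt2, Wdr18 and Tpm3 (0.982 to 0.983).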

How the data were processed

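RNA from the input and polysomes of control and RAM siRNA cells was measured in 16 libraries. The authors mapped reads to GRCm38 with STAR 2.5.1b and deposited raw counts per gene from htseq-count, from stranded libraries depleted of ribosomal RNA; the annotation release is not given in the sources used here. The labels and the methods name different transfection reagents. Symbols, exon lengths and positions came from GENCODE for the same build, and promoters from RefSeq. Counts were scaled by TMM and tested by quasi-likelihood (glmQLFTest, edgeR 4.0.16, R 4.3.3) and adjusted by Benjamini-Hochberg for the 12805 genes with at least 1 CPM in at least 10 libraries, at a threshold of 0.05. An exact permutation test was planned for germline genes that failed this filter, and 0 did. Displayed CPM used TMM over all 16 libraries. Log2 CPM used a pseudocount of 0.5. Groups came from the labels, and 0 columns had no sample. The fits were run on simulated counts with planted changes. These counts held no replicate effect, unlike the libraries, so they cannot show which of the fits without and with the block suits the data.

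Input and polysome libraries of 1 number came from 1 extract, and replicates from separate occasions. Over 9135 genes, the deviations from the group means in control libraries and in RAM siRNA libraries of 1 number correlated at 0.400 to 0.797 in input and 0.625 to 0.944 in polysomes, and at 0.237 or more between fractions, so the numbers pair the samples.

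The 10 genes and the lists were chosen with earlier results of these data known. Named list genes are up to 5 a list, by smallest p in input, of those called without the block. Alternatives were DESeq2 1.42.0, RLE scaling, other filters, the replicate block, replicates 1 and 2 or 3 and 4 alone and each library left out. The blocked fits without a same-numbered pair were chosen after seeing the data.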

Additional observations from a re-analysis of the deposited data

How the results depend on the processing

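In input, the 2 germline genes called became 5 by DESeq2, 5 without a filter on low counts, 7 with the replicate block, 5 with replicates 1 and 2 alone and 0 with replicates 3 and 4 alone. They were 1 to 3 when 1 library was left out, and 6 to 8 under the replicate block without 1 pair. In polysomes, the 0 called became 1 by DESeq2 and 4 with the replicate block, 0 with any 1 library left out, and 1 to 5 under the block without 1 pair. For loading the count was 0 under every alternative listed. For polysomes against input in control cells it was 6 to 9 over the 19 alternatives, where 3747 to 6760 of all genes were lower and 3627 to 5334 higher. RLE scaling and filterByExpr left the counts for input, polysomes and loading at 2, 0 and 0. The replicate block changed no call of a germline gene beyond those given with the results. Over all genes, the calls in input were 761 lower and 890 higher without and 2433 and 2595 with the block, and in polysomes 3 and 0 without and 636 and 1239 with it. The input counts without the block, on which the shares of 5.94% and 6.95% rest, ran from 426 to 1149 lower and from 482 to 1357 higher when 1 library was left out. By DESeq2 input gave 911 lower and 1067 higher of 12805 genes, and without a filter 984 and 1111 of 28462. Under the block without 1 pair, input gave 1705 to 2396 lower and 1874 to 2571 higher. With replicates 1 and 2 alone, input gave 1213 lower and 1416 higher, and with replicates 3 and 4 alone 0 and 0, the related lists included. In polysomes the calls were 144 lower and 156 higher by DESeq2, 18 and 21 without a filter, 10 and 8 with filterByExpr, and under the block 265 and 541 without pair 1, 1827 and 2731 without pair 2, 409 and 788 without pair 3, and 307 and 611 without pair 4. For polysomes against input in control cells, leaving out the filter moved the genes lower from 4388 to 6760 and the median of all genes to -0.34 on the log2 scale. In input, leaving out 1 library gave log2 changes of 0.047 to 0.28 for Stk31, 0.11 to 0.30 for Sycp3 and 0.033 to 0.16 for Dppa2. Directions turned only among values that were not called. In polysomes, Sycp3 was -0.15 on the log2 scale with replicates 1 and 2 alone, and Dppa3 was 0.12 with replicates 3 and 4 alone. With 1 library left out, Sycp3 ran from -0.11 to 0.35, Dppa2 from -0.11 to 0.060 and Dppa3 from -0.71 to 0.26. Under the replicate block, Sycp3 was -0.035 without pair 3 and -0.034 without pair 4, and Dppa2 was 0.014 without pair 3. For loading, Tex19.1 was 0.020 without a filter, 0.00047 with filterByExpr and 0.076 with replicates 1 and 2 alone, and Hormad1 was 0.022, 0.0014 and 0.099. With 1 library left out, loading ran from -0.13 to 0.204 for Ddx4, -0.12 to 0.32 for Mael, -0.35 to 0.062 for Sycp3, -0.14 to 0.089 for Tex19.1, -0.10 to 0.84 for Dppa3, -0.19 to 0.070 for Hormad1, -0.29 to 0.056 for Asz1 and -0.091 to 0.39 for Stk31. Under the block, loading was -0.016 without pair 1 and -0.040 without pair 3 for Mael, 0.056 without pair 3 for Hormad1, 0.014 without pair 4 for Tex19.1 and -0.13 without pair 2 for Ddx4. In control cells, Dppa3 was -0.028 with replicates 1 and 2 alone and -0.11 to 0.47 with 1 library left out. The cause of these shifts was not tested. Depth limits Dppa3, with 7 to 66 counts per library.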
